A study of Mus musculus with 6 samples.

Results

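The genes described here code for the acid compartment of the macrophage: 44 genes for cathepsins and the proteins that work beside them, for glycosidases and lipid hydrolases of the lysosome, for its main membrane glycoproteins, and for the proton pump that acidifies it. They were taken by symbol from a list of 44 names, and all 44 were found among the 19938 genes measured. Each gene was read by its probe set of highest mean over the 6 arrays. The RNA came from bone marrow of C57BL/6 mice cultured for 7 days with CSF1 (M-CSF), giving M(CSF1) cells, or with CSF2 (GM-CSF), giving M(CSF2) cells. Both groups are labelled bone marrow derived macrophages (BMDMs), each has 3 arrays called biological replicates, and the sorted cells of both were put into Trizol within 4 h. The age and sex of the mice, the marker used in the sort, and whether the replicates of a group are separate mice or pools were not stated in any source at hand. P-values thus rest on the spread among these arrays, which may in part be technical.

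Lysosomes take up material delivered by endocytosis, phagocytosis and autophagy and break it down at acid pH. The vacuolar proton pump (V-ATPase) sets that pH: its cytosolic V1 sector hydrolyses ATP, its membrane V0 sector passes the protons, and accessory proteins help to assemble it. Cathepsins cut proteins, glycosidases trim sugars from glycoproteins, glycolipids and glycogen, and in macrophages and dendritic cells the same proteases prepare antigens for MHC class II. Many lysosomal genes carry a short palindrome near their start site that is read by the transcription factors TFEB, TFE3, MITF and TFEC.

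Most of the lysosomal genes were higher in the cells grown with CSF2. Each difference is the M(CSF2) mean minus the M(CSF1) mean in log2 units, tested with limma, and a gene is called at a Benjamini-Hochberg adjusted p under 0.05 over all 19938 genes. Of the 44 genes, 28 were called higher in M(CSF2), 3 were called lower and 13 were not called. Among all genes, 11.9% were called higher and 15.6% lower, 27.5% in either direction. Of these 19938 genes, 6621 were at background level, defined below, in at least 1 group, and none of the 44 was. When only genes above background were kept, fewer genes were tested and more were called. The share called in either direction was thus above 27.5% among them. The dim genes are counted in every share of all genes given here, so the 44 exceed genes of like signal by less. The median difference of the 44 was 0.48, with a range from -1.36 to 2.10, against a median of 0.04 over all genes. At least 2-fold differences were called for 9 of the 44 in the higher direction and for 1 in the lower, where 7.99% of all genes passed in either direction. In 34 of the 44 genes the values of the groups did not overlap, 30 higher in M(CSF2) and 4 lower, against 38.9% of all genes. These are bulk cultures, in which fewer cells of a type and less RNA per cell cannot be told apart.

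The 13 genes that were not called were spread over nearly all roles: the cathepsins Ctsb, Ctsf and Ctso, the glycosidase Gusb, the lipid hydrolases Asah1 and Smpd1, Lamp1, and the pump subunits Atp6v0d1, Atp6v1a, Atp6v1b2, Atp6v1c1, Atp6v1d and Atp6v1h. The 3 called lower were the proteases Lgmn and Ctsc and the progranulin gene Grn. No glycosidase, lipid gene or pump subunit among the 44 was called lower. None of the 44 genes was at background level in either group, taking as background the 95th percentile of 1027 olfactory receptor genes, 3.36 on the log2 scale.

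**Figure D1:**
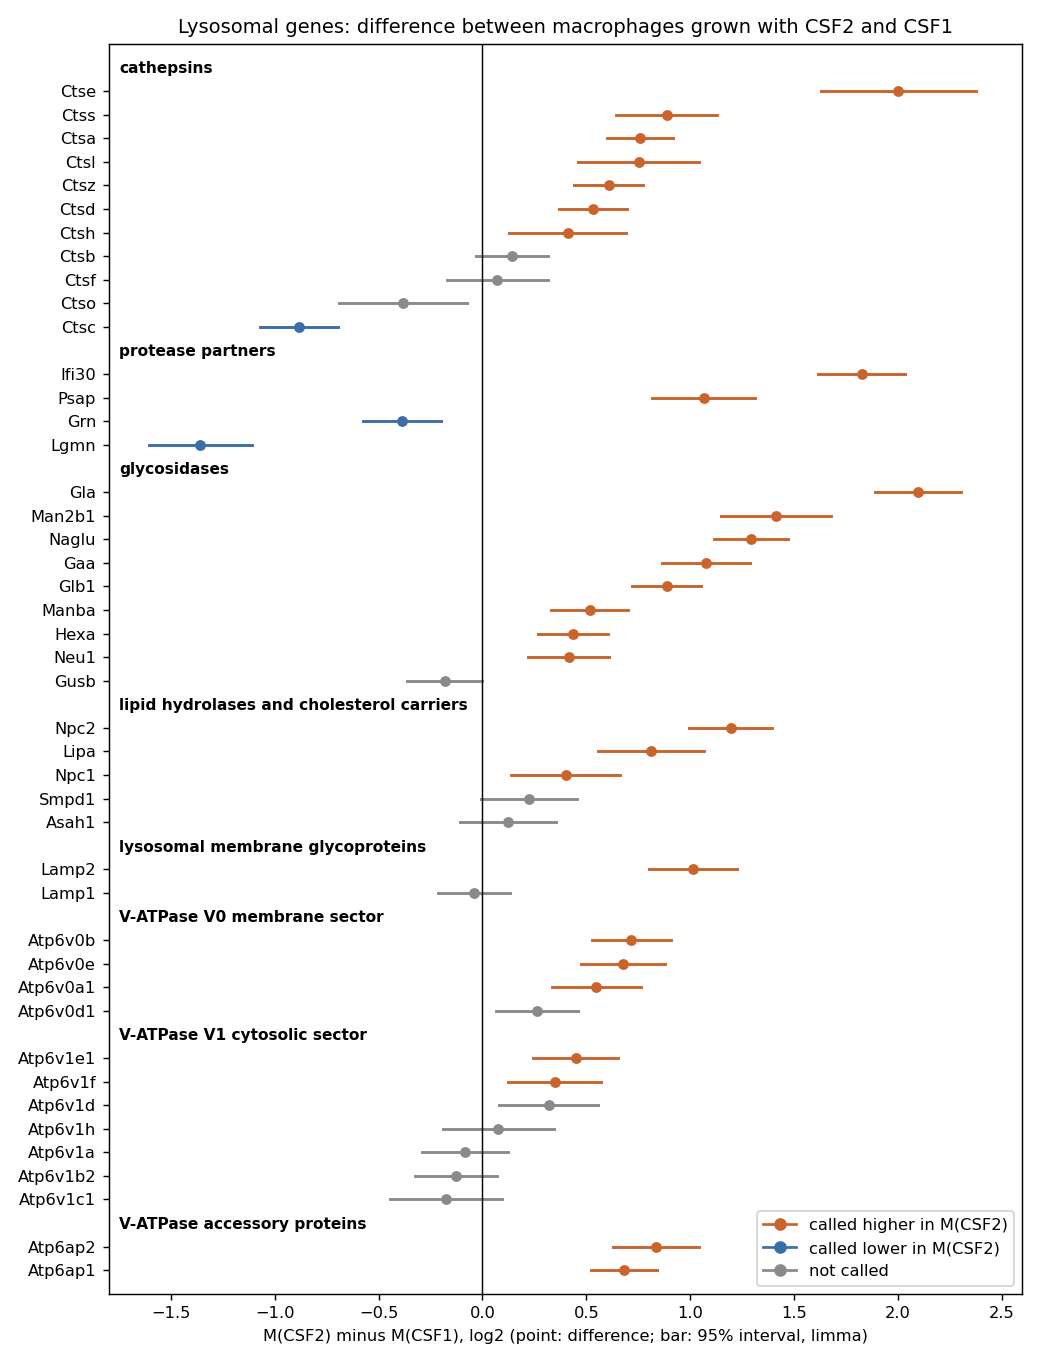
Difference between M(CSF2) and M(CSF1), the second subtracted from the first, in log2 units for the 44 lysosomal genes, grouped by role and ordered within it; points are limma estimates over 3 arrays a group, bars are 95% intervals, and colours mark genes called higher, lower or not called. Points of 28 genes are called to the right of 0 and 3 to the left, and every glycosidase but Gusb lies to the right.

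The 6 arrays were closely alike within a group, with correlations across all probe sets of 0.995 to 0.997, and 0.954 to 0.959 between groups. Within M(CSF1), the arrays ranked unevenly in the lysosomal genes. M(CSF1) replicate 1 had the highest value of its group in 40 of the 44 genes, whereas it was the highest M(CSF1) array in 39.1% of all genes and in 45.2% of the genes outside the list that lay above background. It lay a median of 0.10 above its group mean over the 44 genes, and M(CSF1) replicate 3 a median of 0.10 below it. After quantile normalization the count was 36 of 44 (38.2% of all genes), and after centring each array on its median it was 41 of 44 (50.9%), 2 settings chosen after the data were seen. Among the M(CSF2) arrays, replicate 3 was highest in 20 genes, replicate 1 in 14 and replicate 2 in 10. This order depended on the scaling: after quantile normalization replicate 1 was highest in 23 genes and replicate 3 in 11. Without M(CSF1) replicate 1 the calls were 29 higher and 3 lower.

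**Figure D2:**
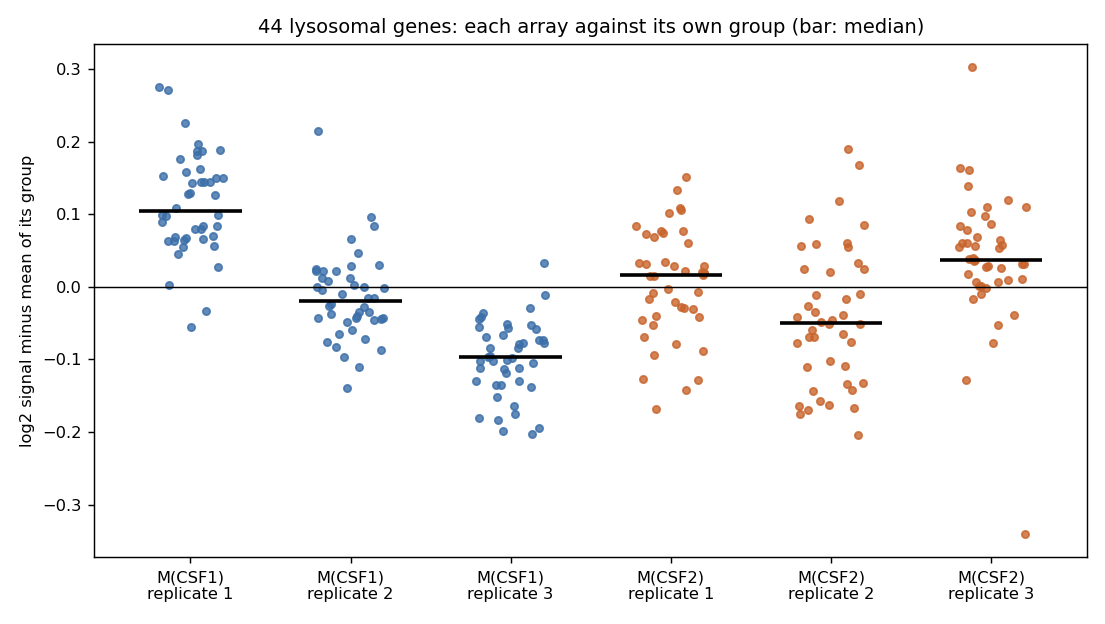
Deviation of each array from the mean of its own group on the log2 scale, 1 point a gene for the 44 lysosomal genes, with the median as a bar. The points of M(CSF1) replicate 1 lie around 0.10 and those of M(CSF1) replicate 3 around -0.10, while the M(CSF2) arrays lie closer to 0.

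The palindrome CACGTG and its longer form TCACGTGA, which contains it, were searched in RefSeq promoter windows (assembly GRCm38.p6) of 300 bases, 250 before and 50 after each start site. Both read the same on either strand. Windows were at hand for 36 of the 44 genes, 39 windows in all. The 6-letter form stood in 38.5% of the 39 windows, against 7.15% of all 32851 windows of that length and 7.84% of those of protein-coding genes. The 8-letter form stood in 17.9% of them, against 0.974% of all windows and 1.23% of protein-coding ones. In 122 windows of genes from the other lists of the pathway given below, the 6-letter form stood in 17.2% and the 8-letter form in 7.38%. Counted by gene, 15 of 36 had the 6-letter form and 7 the 8-letter form.

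The 7 genes with the 8-letter form are shown because they include genes that rose and genes that were not called. Lgmn is shown because it has the 6-letter form and fell, and Lamp1 because it has the most matches of that form. The other genes with only the 6-letter form, among them Ctsf, which was not called, are not shown. Letters run 5′ to 3′ along the gene, and capitals mark CACGTG.
Gla, chrX:134601179-134601247, minus strand: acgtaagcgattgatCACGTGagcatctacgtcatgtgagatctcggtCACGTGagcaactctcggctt
Ifi30, chr8:70766839-70766874, minus strand: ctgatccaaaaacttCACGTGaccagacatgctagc
Ctsa, chr2:164833746-164833798, plus strand: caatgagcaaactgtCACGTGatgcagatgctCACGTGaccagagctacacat
Ctsd, chr7:142387905-142387940, minus strand: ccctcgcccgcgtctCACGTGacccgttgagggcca
Atp6v0e, chr17:26676384-26676419, plus strand: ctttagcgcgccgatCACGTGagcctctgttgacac
Atp6v0d1, chr8:105566047-105566082, minus strand: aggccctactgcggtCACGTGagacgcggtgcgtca
Atp6v1a, chr16:44139370-44139405, minus strand: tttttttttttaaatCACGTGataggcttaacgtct
Lgmn, chr12:102439121-102439156, minus strand: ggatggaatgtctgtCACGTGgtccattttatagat
Lamp1, chr8:13159085-13159166, plus strand: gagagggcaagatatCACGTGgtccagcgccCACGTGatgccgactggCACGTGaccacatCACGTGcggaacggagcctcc

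The 8-letter form lay between 224 bases before and 8 bases after the start site, with 2 matches each in Gla and Ctsa. Matches occurred in genes called higher and in genes not called. The 6-letter form was found in 10 of the 25 genes called higher that have a window, in 1 of the 3 called lower (Lgmn) and in 4 of the 8 not called. For the 8-letter form these counts were 5 of 25, 0 of 3 and 2 of 8. Lamp1, with 4 matches, differed by -0.04, and Gla, with 2, by 2.10. By role, among genes with a window, the 6-letter form stood in 4 of 8 cathepsins, 2 of 4 of their partners and 4 of 9 glycosidases. It also stood in 1 of 2 membrane glycoproteins, 3 of 4 V0 subunits and 1 of 4 V1 subunits. None of the 2 accessory genes, both called higher, and none of the 3 lipid genes had it. A match is a run of letters and does not show that a factor binds there.

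The cathepsins were mostly higher in M(CSF2): 7 of 11 were called higher, 1 lower and 3 not called, with a median difference of 0.53. The shares among all genes were 11.9% higher and 15.6% lower. They fall into aspartic proteases (Ctsd, Ctse), a serine carboxypeptidase (Ctsa) and cysteine proteases. Ctse, an aspartic protease found in antigen-presenting cells, had M(CSF1) values of 5.27, 5.08 and 4.90 and M(CSF2) values of 7.24, 7.27 and 6.74. All 3 M(CSF2) arrays lay above all M(CSF1) arrays, with replicate 3 the lowest of its group. The difference was 2.0 (95% interval 1.63 to 2.37), a 4.01-fold ratio of signals (adjusted p = 5.94e-05, limma), and 2.49% of all genes differed by more. Ctsd, the widely made aspartic protease, was 0.53 higher (interval 0.37 to 0.70, adjusted p = 0.000846, limma).

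Among the cysteine proteases, Ctss, which cuts the invariant chain of MHC class II, was 0.89 higher (interval 0.64 to 1.13). The endopeptidase Ctsl was 0.75 higher (0.46 to 1.04), the carboxypeptidase Ctsz 0.61 higher (0.44 to 0.77) and the aminopeptidase Ctsh 0.41 higher (0.13 to 0.69, adjusted p = 0.0399, limma). The Ctsh call was lost in 6 of 14 alternative analyses: after centring on array medians (adjusted p = 0.0819), and without any single array other than M(CSF1) replicate 1, where the difference was 0.31 to 0.44 and the adjusted p 0.0834 to 0.151 (limma). Ctsa, the carboxypeptidase that also stabilises beta-galactosidase and neuraminidase, was 0.76 higher (0.60 to 0.92), with its CACGTG matches shown above. Ctsb, the most studied lysosomal cysteine protease, differed by 0.14 (-0.03 to 0.32), Ctsf by 0.07 (-0.17 to 0.32) and Ctso by -0.38 (-0.69 to -0.07), none of them called. In Ctso, the M(CSF2) arrays read 5.50, 5.45 and 5.93 against 6.07, 6.04 and 5.91, so replicate 3 alone overlapped the other group. Without M(CSF2) replicate 3, Ctso was called lower at -0.53 (adjusted p = 0.00592, limma), and it was also called with either filter on dim genes.

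Ctsc, the dipeptidyl peptidase that activates the serine proteases of granulocytes and lymphocytes, ran the other way. It read 10.73, 10.60 and 10.65 in M(CSF1) and 9.77, 9.68 and 9.89 in M(CSF2). The groups were well apart, each within a narrow range. The difference was -0.88 (-1.07 to -0.69, adjusted p = 0.000125, limma), 1.84-fold lower in M(CSF2).

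The 4 genes grouped here with the cathepsins as partners, Ifi30, Psap, Lgmn and Grn, split evenly, 2 called higher and 2 called lower. Of all genes, 11.9% were called higher and 15.6% lower. The grouping is loose, as Lgmn is itself a protease. Ifi30, the thiol reductase GILT that opens disulphide bonds of antigens, read 8.90, 8.70 and 8.63 in M(CSF1) and 10.58, 10.49 and 10.63 in M(CSF2). Every M(CSF2) value was above every M(CSF1) value by a wide margin. The difference was 1.83 (1.61 to 2.04, adjusted p = 5.82e-06, limma), or 3.54-fold. Psap, the precursor of the saposins that present glycolipids to their hydrolases, read 11.62, 11.30 and 11.26 against 12.45, 12.41 and 12.51. M(CSF1) replicate 1 was the highest of its group and still below all M(CSF2) arrays. Psap was 1.06 higher (0.82 to 1.31, adjusted p = 0.000191, limma).

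Lgmn, the asparaginyl endopeptidase that matures several cathepsins, read 11.20, 10.98 and 10.87 in M(CSF1) and 9.73, 9.72 and 9.53 in M(CSF2). It was high in all M(CSF1) arrays and fell in all M(CSF2) arrays, with no overlap. Its difference of -1.36 (-1.61 to -1.11, adjusted p = 5.36e-05, limma) made it 2.56-fold lower, the largest fall of the 44 genes. Grn, coding for progranulin, a secreted and lysosomal glycoprotein, read 11.87, 11.77 and 11.68 against 11.47, 11.31 and 11.39. The groups were close but did not overlap. The difference was -0.39 (-0.57 to -0.20, adjusted p = 0.00859, limma).

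**Figure D3:**
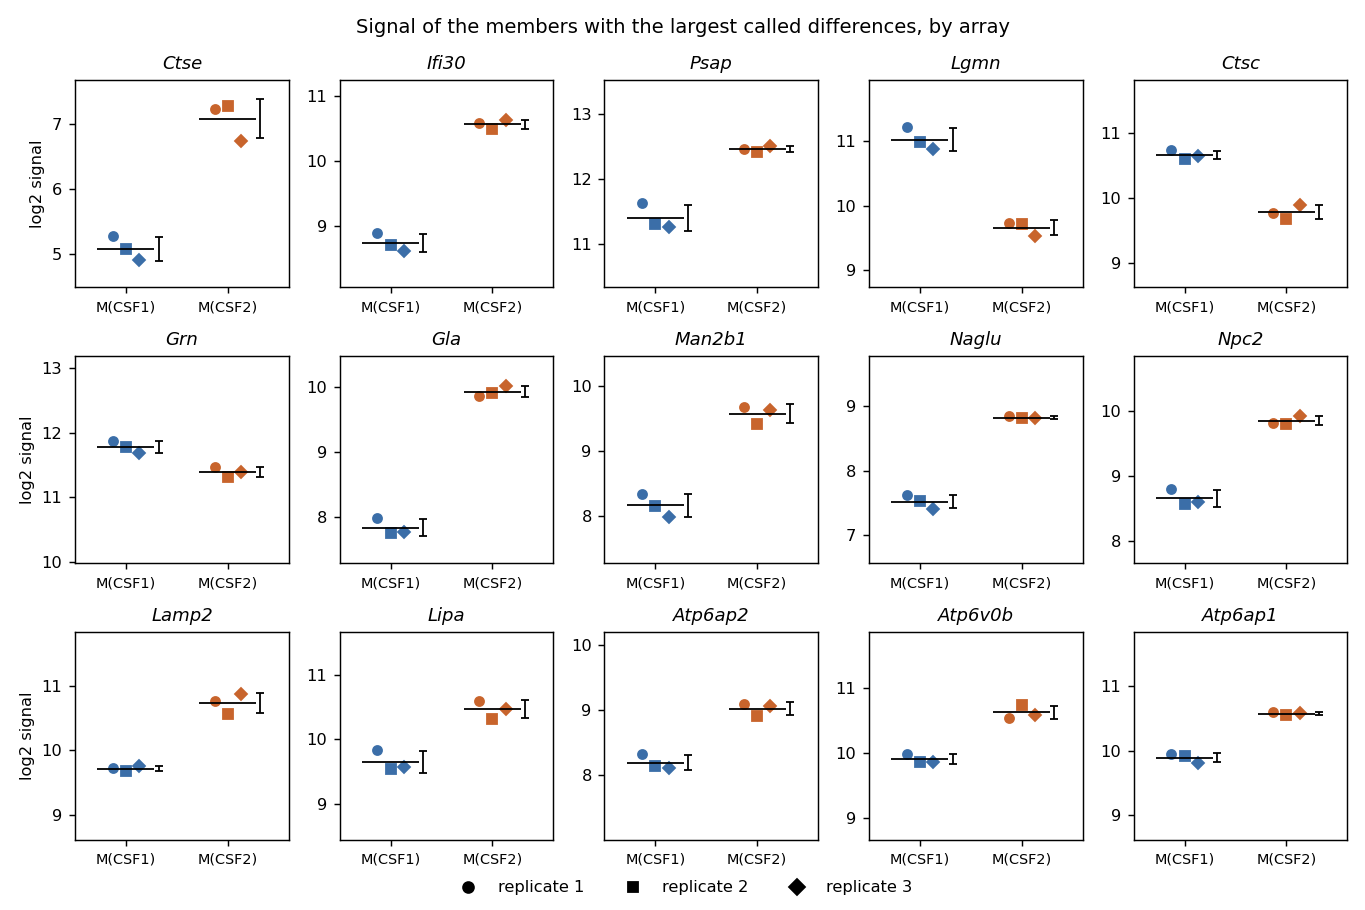
Log2 signal in each array for the 15 lysosomal genes with the largest called differences of their role groups; symbols mark replicates 1, 2 and 3, horizontal lines the group means and brackets 1 SD to each side (n = 3). Each panel spans the same number of log2 units, and levels cannot be set against each other between genes. In all 15 panels the groups do not overlap, with Lgmn, Ctsc and Grn lower in M(CSF2).

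Nearly all glycosidases among the 44 genes rose. Of 9, 8 were called higher and none lower, against 11.9% and 15.6% of all genes, with a median difference of 0.89. Gla, the alpha-galactosidase that clears globotriaosylceramide, read 7.99, 7.76 and 7.76 in M(CSF1) and 9.87, 9.92 and 10.02 in M(CSF2). The arrays of each group lay within a narrow band, far from the other group. It was the largest difference of the 44 genes at 2.10 (1.89 to 2.30, adjusted p = 2.79e-06, limma), 4.28-fold, and 2.27% of all genes differed by more. Man2b1, the lysosomal alpha-mannosidase, read 8.34, 8.16 and 7.98 against 9.68, 9.41 and 9.63. The M(CSF1) arrays spread more than those of Gla, without reaching the M(CSF2) arrays. Its difference was 1.41 (1.15 to 1.68, adjusted p = 6.32e-05, limma). Naglu, which removes N-acetylglucosamine from heparan sulphate, read 7.62, 7.53 and 7.41 against 8.84, 8.80 and 8.80. The M(CSF2) arrays were nearly identical. Naglu was 1.29 higher (1.11 to 1.47, adjusted p = 1.28e-05, limma).

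The other called glycosidases rose less. Gaa, the acid alpha-glucosidase of glycogen, was 1.08 higher (0.86 to 1.29), and Glb1, the beta-galactosidase of ganglioside GM1 and keratan sulphate, 0.89 higher (0.72 to 1.05). Manba, the beta-mannosidase, was 0.52 higher (0.33 to 0.70), Hexa, a subunit of beta-hexosaminidase, 0.44 higher (0.27 to 0.61), and the sialidase Neu1 0.42 higher (0.22 to 0.61). The adjusted p-values of these 5 ran from 6.26e-05 to 0.00705 (limma), and the groups did not overlap in any of them. Gusb, the beta-glucuronidase, was the exception. It read 9.59, 9.58 and 9.43 in M(CSF1) and 9.37, 9.41 and 9.27 in M(CSF2), a narrow gap with every M(CSF2) value below, and the difference of -0.18 had an adjusted p of 0.134 (limma).

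The genes of lipid breakdown and cholesterol export, and the membrane glycoproteins, were more uneven. Of the 5 lipid genes, 3 were called higher and none lower (median 0.40), against 11.9% and 15.6% of all genes. Of the pair of glycoproteins 1 was called higher. Npc2, the soluble carrier that hands cholesterol to NPC1, read 8.80, 8.57 and 8.60 in M(CSF1) and 9.82, 9.80 and 9.93 in M(CSF2). All M(CSF2) arrays lay far above all M(CSF1) arrays. Its difference was 1.20 (0.99 to 1.40, adjusted p = 3.57e-05, limma). Npc1, the membrane partner of Npc2, was 0.40 higher (0.14 to 0.66, adjusted p = 0.0328, limma). The Npc1 call was lost after centring on array medians (adjusted p = 0.0739) and without M(CSF1) replicate 2 or 3 or M(CSF2) replicate 1 or 3, where the difference was 0.30 to 0.43 and the adjusted p 0.0797 to 0.126 (limma).

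Lipa, the acid lipase of cholesteryl esters and triglycerides, read 9.84, 9.54 and 9.58 in M(CSF1) and 10.60, 10.32 and 10.48 in M(CSF2). The groups did not overlap, and M(CSF1) replicate 1 was the M(CSF1) array nearest to the M(CSF2) arrays. Lipa was 0.81 higher (0.56 to 1.07, adjusted p = 0.000951, limma). The acid ceramidase Asah1 differed by 0.12 (-0.11 to 0.35) and the acid sphingomyelinase Smpd1 by 0.22 (-0.01 to 0.46). Their groups overlapped, and neither was called.

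The abundant membrane glycoproteins Lamp1 and Lamp2, whose sugar chains line the lysosome from within, gave unlike values. Lamp2, also the receptor of chaperone-mediated autophagy, read 9.72, 9.69 and 9.75 in M(CSF1) and 10.77, 10.56 and 10.87 in M(CSF2). The M(CSF1) arrays were nearly identical and all M(CSF2) arrays were higher. The difference was 1.01 (0.80 to 1.23, adjusted p = 0.000114, limma). Lamp1 read 10.87, 10.73 and 10.71 in M(CSF1) and 10.72, 10.68 and 10.79 in M(CSF2). Its groups overlapped, and the difference was -0.04 (-0.22 to 0.13). Whether the differences of Lamp1 and Lamp2 differ from each other was not tested.

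Of the 13 proton pump genes, 7 were called higher in M(CSF2) and none lower, against 11.9% and 15.6% of all genes. None was called lower in any of the 14 alternatives to the limma fit. At an unadjusted p under 0.05 (limma), the not-called genes of these 13 past that level, Atp6v0d1 and Atp6v1d, were both higher. Among pump genes outside the 13, Atp6v1g1 passed that level in the lower direction, as given below. The sectors of the pump differed in their counts, which were not tested against each other. In the membrane sector V0, 3 of 4 genes were called higher (median 0.61), and both accessory genes were called higher. In the cytosolic sector V1, 2 of 7 were called, both higher (median 0.08). That V1 share was close to the 27.5% of all genes called in either direction. No pump gene in the list differed 2-fold.

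In V0, Atp6v0b, a proteolipid of the proton-carrying ring, read 9.998, 9.87 and 9.87 in M(CSF1) and 10.55, 10.75 and 10.59 in M(CSF2). The groups were clearly apart. The difference was 0.72 (0.53 to 0.91, adjusted p = 0.000389, limma). Atp6v0e, a small membrane subunit, was 0.68 higher (0.47 to 0.88), and Atp6v0a1, an isoform of the large subunit that guides protons to the ring, 0.55 higher (0.34 to 0.76). Atp6v0d1, which sits at the stalk, differed by 0.26 (0.06 to 0.46, adjusted p = 0.0567, limma). It was not called although its groups did not overlap. It was called higher in 5 of the 14 alternatives, among them quantile normalization (0.32, adjusted p = 0.0105) and the fit without M(CSF1) replicate 1 (0.33, adjusted p = 0.0345, limma).

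The accessory genes code for proteins that help to assemble and deliver the pump. Atp6ap2, also known as the prorenin receptor, read 8.32, 8.14 and 8.10 in M(CSF1) and 9.09, 8.91 and 9.06 in M(CSF2). Its groups were apart, and M(CSF1) replicate 1 was again the highest of its own. The difference was 0.83 (0.63 to 1.04, adjusted p = 0.000265, limma). Atp6ap1 read 9.94, 9.91 and 9.81 against 10.59, 10.54 and 10.58. The arrays of each group agreed closely. Atp6ap1 was 0.68 higher (0.52 to 0.84, adjusted p = 0.000204, limma).

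In V1, the stalk subunits Atp6v1e1 and Atp6v1f were called, at 0.45 (0.25 to 0.65) and 0.35 (0.12 to 0.57). Atp6v1f is the only gene of the 44 with a second probe set of its own, which differed by 0.26 and had an adjusted p of 0.069 over all probe sets of 1 gene (limma). The Atp6v1f call was lost after centring on array medians (adjusted p = 0.0585) and without any single array other than M(CSF2) replicate 1, where the difference was 0.26 to 0.36 and the adjusted p 0.0715 to 0.0895 (limma). Atp6v1d, the rotor subunit, differed by 0.32 (0.08 to 0.56, adjusted p = 0.0552, limma) with groups that did not overlap, and it was called without M(CSF1) replicate 1 at 0.39 (adjusted p = 0.0424, limma). The catalytic subunit gene Atp6v1a differed by -0.09 (-0.29 to 0.12), its partner in the ATP-hydrolysing head Atp6v1b2 by -0.13 (-0.33 to 0.07), the peripheral Atp6v1c1 by -0.18 (-0.45 to 0.09) and the regulatory Atp6v1h by 0.08 (-0.19 to 0.34). All 4 had overlapping groups.

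The same contrast was read within each array as the mean log2 value of the V0 genes minus that of the V1 genes, a measure that does not move with the overall level of an array. Its absolute size depends on the probes and only its change between arrays is of use. It was 0.95, 0.97 and 1.01 in the M(CSF1) arrays and 1.38, 1.51 and 1.36 in the M(CSF2) arrays. All M(CSF2) arrays were above all M(CSF1) arrays, M(CSF1) replicate 1 included. The accessory genes minus V1 gave 0.21, 0.23 and 0.27 against 0.95, 0.87 and 0.82. These values describe the listed subunits and were not tested.

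**Figure D4:**
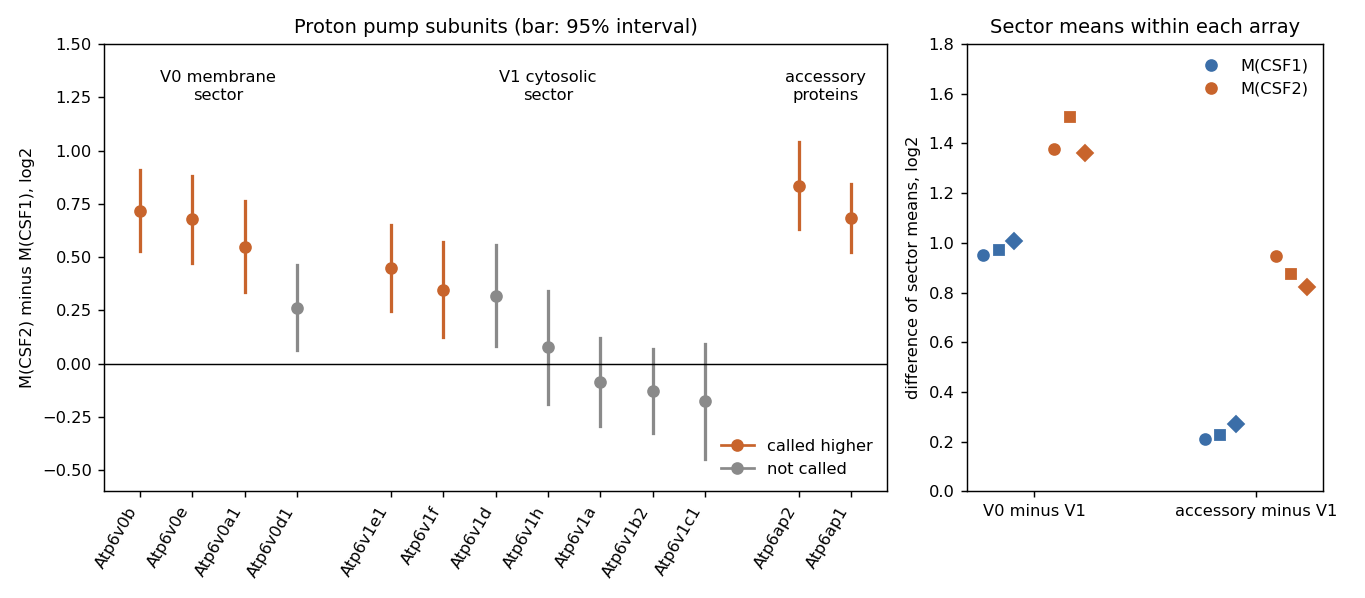
Left, difference between M(CSF2) and M(CSF1) in log2 units, positive where M(CSF2) is higher, for the 13 proton pump genes by sector, with 95% intervals from limma; right, mean log2 value of the V0 or accessory genes minus that of the V1 genes within each array, circles, squares and diamonds standing for replicates 1, 2 and 3. The V0 minus V1 values are 0.95 to 1.01 in M(CSF1) and 1.36 to 1.51 in M(CSF2).

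Other pump genes outside the 44 were measured in 11 of 12 cases. Of these, 3 were called higher and none lower, against 11.9% and 15.6% of all genes. The largest was Atp6v0d2, the isoform of the d subunit known from osteoclasts, which read 7.20, 7.00 and 6.56 in M(CSF1) and 9.88, 9.49 and 9.81 in M(CSF2). All M(CSF2) arrays were far above the M(CSF1) arrays. It was 2.81 higher (2.40 to 3.22, adjusted p = 1.76e-05, limma), 7.01-fold, next to the 0.26 of its widely expressed counterpart Atp6v0d1. Tcirg1, which codes for the a3 isoform of the large V0 subunit, was 0.57 higher (0.35 to 0.78), close in value to the 0.55 of Atp6v0a1. With these, 10 of the 24 measured pump genes were called higher and none lower, against 11.9% and 15.6% of all genes. At an unadjusted p under 0.05 (limma), 2 not-called genes of this list went opposite ways. Atp6v1g1 was lower at -0.27, with groups that did not overlap, and Atp6v0a2 was higher at 0.20, with groups that did. Both are named here outside the rule.

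Beyond the pump, the remaining lysosomal hydrolases and activators moved in both directions. Of 25 measured genes, 13 were called higher and 7 lower (median 0.32), against 11.9% and 15.6% of all genes. Scpep1, a serine carboxypeptidase, was 1.87 higher (1.66 to 2.07), and Fuca1, the lysosomal fucosidase, 1.48 higher (1.33 to 1.64). Ids, the iduronate sulphatase of heparan and dermatan sulphate, read 7.08, 6.75 and 6.48 in M(CSF1) and 4.79, 4.32 and 4.83 in M(CSF2). It fell in all M(CSF2) arrays, with a difference of -2.12 (-2.55 to -1.69, adjusted p = 9.62e-05, limma), opposite in sign to Naglu, which acts on heparan sulphate as well. Acp2, the lysosomal acid phosphatase, differed by -1.34 (-1.59 to -1.09).

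Of lysosomal membrane proteins outside the list, 13 of 28 were called higher and 3 lower (median 0.33), against 11.9% and 15.6% of all genes. Sidt2, a putative nucleic acid transporter, was 2.31 higher (2.03 to 2.59), and Scarb2, the receptor that carries glucocerebrosidase to the lysosome, 1.27 higher (0.98 to 1.57). The endolysosomal cation channel gene Tpcn1 read 8.70, 8.60 and 8.39 in M(CSF1) and 6.08, 5.79 and 6.12 in M(CSF2). It was 5.92-fold lower, a difference of -2.57 (-2.84 to -2.29, adjusted p = 4.17e-06, limma). Laptm4a, a small membrane protein, differed by -0.72 (-0.87 to -0.57).

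Of genes that send hydrolases to the lysosome, 4 of 10 measured were called higher and 2 lower, against 11.9% and 15.6% of all genes. Sort1, the sortilin receptor of prosaposin and other cargo, was 1.18 higher (0.84 to 1.53). Igf2r, the large mannose 6-phosphate receptor, was 0.64 higher (0.38 to 0.91). Gnptab, a subunit of the enzyme that starts the mannose 6-phosphate tag, read 7.80, 7.73 and 7.50 in M(CSF1) and 6.54, 6.39 and 6.66 in M(CSF2). All M(CSF2) arrays were lower, with a difference of -1.14 (-1.39 to -0.90, adjusted p = 0.000134, limma). The adaptor gene Gga3 was -0.51 apart (-0.81 to -0.21, adjusted p = 0.0209, limma). This call was lost without M(CSF1) replicate 1 or 2 or M(CSF2) replicate 1 or 3, where the difference was -0.49 to -0.42 and the adjusted p 0.0796 to 0.0951 (limma).

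The factors known to read CACGTG in lysosomal genes differed among themselves. In the list of these factors and of the proteins that dock mTORC1 on the lysosome, 2 of 18 genes were called higher and 2 lower (median 0.01). The shares among all genes, 11.9% higher and 15.6% lower, were no smaller. Tfec, the family member restricted to few cell types including macrophages, read 4.81, 4.63 and 5.02 in M(CSF1) and 7.44, 7.12 and 7.29 in M(CSF2). It was high in all M(CSF2) arrays, with a difference of 2.46 (2.17 to 2.75, adjusted p = 6.08e-06, limma), 5.51-fold. Tfe3 was lower by the same test at -0.46 (-0.67 to -0.25, adjusted p = 0.00674). Tfeb differed by 0.07 (-0.19 to 0.34) and Mitf by -0.03 (-0.22 to 0.16), neither called and named here outside the rule. Lamtor4, a subunit of the Ragulator complex, was 1.07 higher (0.80 to 1.34). Fnip1, a partner of folliculin, was -0.43 apart (-0.66 to -0.20), a call lost without M(CSF1) replicate 1 (-0.42, adjusted p = 0.0561) or 2 (-0.41, adjusted p = 0.0629, limma).

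Inhibitors of cysteine proteases were called higher in 4 of 6 measured genes and lower in none, against 11.9% and 15.6% of all genes. Cst7, cystatin F, which is targeted to the lysosome and restrains the protease made from Ctsc, read 5.17, 5.01 and 4.62 in M(CSF1) and 7.87, 8.80 and 8.02 in M(CSF2). It was 3.30 higher (2.71 to 3.88, adjusted p = 4.61e-05, limma), whereas Ctsc itself fell. Stfa3, a stefin, read 3.55, 3.26 and 2.85 in M(CSF1), with replicates 2 and 3 at background level, and 10.77, 11.11 and 11.19 in M(CSF2). It was called higher, and no fold is given against a group mostly at background. Stefin genes are near-copies of each other, so the assignment of this signal to Stfa3 is uncertain. Of 3 other cathepsins, Ctsk, known from osteoclasts, was 0.91 higher (0.50 to 1.31, adjusted p = 0.00595, limma), and Ctsg and Ctsw were at background level. None of the 7 measured placental cathepsins was called, and 5 of them were at background level in both groups.

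**Figure D5:**
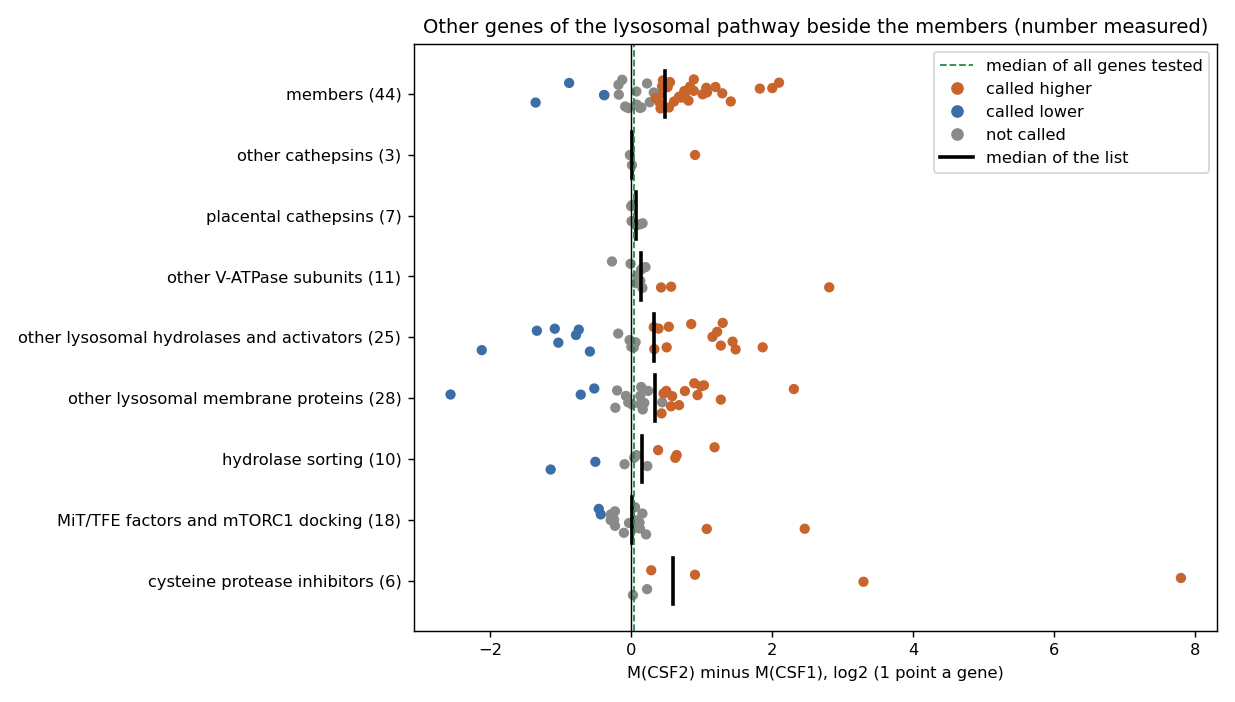
Difference between M(CSF2) and M(CSF1) in log2 units, positive where M(CSF2) is higher, 1 point a gene, for the 44 lysosomal genes (members) and for the other lists of the pathway, with the number of measured genes; black bars are list medians and the dashed line the median of all genes. The 44 genes have their median at 0.48, and the other hydrolases reach from -2.12 to 1.87.

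The labelled cell type was checked by markers. All 10 macrophage markers were above background in both groups, and their summed level, taken on the linear scale and given as log2, was 14.12 to 14.18 in M(CSF1) and 14.03 to 14.11 in M(CSF2). Single markers went both ways: 3 were called higher (Cd14 by 1.71, Cd68 and Csf1r) and 5 lower, among them Fcgr1 (-1.23), Adgre1 (-1.18) and Ptprc (-0.73). Marker lists of other cells differed between the groups in some cases and not in others. The dendritic list summed to 8.07 to 8.47 in M(CSF1) and 12.17 to 12.42 in M(CSF2), with Itgax (5.05), H2-Aa, Cd74 and Ccr7 called higher. Clec9a was called too but lay at background level in both groups, as did Xcr1 and Dpp4, which were not called. Flt3 (-0.08), Cd209a (0.04) and Zbtb46 (0.26) were also not called. Of the 10 dendritic genes 5 were thus called higher and none lower. The neutrophil list went from 9.43 to 9.63 up to 11.35 to 11.55 (of 12 genes Mmp8, S100a8 and Ltf called higher and Csf3r lower, with Ltf, Ly6g, Cxcr2 and Ngp at background level in both groups). The mast cell and basophil list went from 6.68 to 6.97 up to 9.03 to 9.25 (of 10 genes Hdc, Gata2, Kit and Mcpt8 called higher, with Mcpt8, Ms4a2, Cpa3, Fcer1a and Mcpt4 at background level in both groups). The osteoclast list summed to 12.09 to 12.36 and 12.10 to 12.46, with 4 of 11 genes called higher and 4 lower, and Calcr at background level. Called higher were Dcstamp (4.70), Atp6v0d2 (2.81), Ctsk (0.91) and Ocstamp (0.76). Called lower were Tnfrsf11a (-2.46), Acp5 (-1.09), Mmp9 (-0.90) and Nfatc1 (-0.37), so the like sums hide differences in both directions. Whether such other cells were present, and what part they had in the lysosomal differences, was not tested.

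The other marker lists gave these values. B cell markers summed to 7.56 to 7.83 in M(CSF1) and 6.15 to 6.28 in M(CSF2) (1 of 4 measured called, Cd79b, lower). T cell markers gave 5.95 to 6.05 and 5.77 to 5.86 (1 of 5 called, Cd4, lower), and erythroid markers 5.58 to 5.63 and 5.53 to 5.59 (none of 4 called). Stromal markers gave 7.53 to 7.66 and 8.05 to 8.41, with 2 of 7 called higher and 1 lower.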

How the data were processed

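RNA of 3 M(CSF1) and 3 M(CSF2) samples had been hybridised to 1-colour Affymetrix arrays, per the labels. The authors deposited 1 value per array for each of 28941 probe sets. The deposited values ran from 1.48 to 13.27 with no stated scale, and were taken as log2 signals as the authors processed them, with MAS5 the only tool named in the submitters' processing notes and its role not stated. No source at hand describes a further step of background correction, normalization or summary. The 6 array medians lay between 3.91 and 4.00. There were no detection calls, and the number of arrays limits the precision.

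Probe sets were named by the platform annotation: 21789 had 1 gene, 1621 several and 5531 none. Only those with 1 gene were used, each gene by its probe set of highest mean, which left 19938 genes. The groups were compared by limma (3.58.1, under R 4.3.3) through lmFit and eBayes, 2-sided and with no covariates, and every adjusted p is Benjamini-Hochberg over these genes unless stated. The method was tested on simulated data. Folds are ratios of signals and can understate those of transcripts. The background level is the 95th percentile of olfactory receptor genes.

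The 44 genes, the other lists and the tests were chosen with earlier results of these data known. Array values are given for up to 3 of the largest called differences in each direction among the cathepsins with their partners, the glycosidases, the lipid and membrane genes, and the pump, and up to 2 per direction are named of each other list. Listed genes with no probe set of their own in the annotation used were not analysed here. The fit was repeated after quantile normalization, after centring arrays on their medians, with 2 filters on dim genes, on averaged probe sets, with 2 variance models, with the replicate number as a block, and with each array left out once.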

Additional observations from a re-analysis of the deposited data

How the results depend on the processing

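Over the 14 alternatives, 25 to 31 of the 44 lysosomal genes were called higher in M(CSF2) and 3 to 4 lower, and no call changed direction. Leaving out 1 array at a time gave 25 to 29 higher and 3 to 4 lower. The fit with the replicate block gave 28 higher and 3 lower, and 5072 of all genes called against 5488 without it; deviations of same-numbered arrays correlated at 0.004, -0.04 and -0.25, so the numbers were not taken to pair the samples. Of the 31 called genes, 28 kept the call in every alternative. Ctsh, Npc1 and Atp6v1f lost it in some, all 3 when arrays were centred on their medians and when M(CSF1) replicate 2 or 3 or M(CSF2) replicate 3 was left out. Of the 13 not called, Ctso, Smpd1, Atp6v0d1 and Atp6v1d were called in at least 1 alternative and 9 in none. Quantile normalization moved the differences of Ctsb (0.14 to -0.08), Ctsd (0.53 to 0.36), Grn (-0.39 to -0.53), Ctsz (0.61 to 0.48), Ctss, Psap and Ctsl down and those of the other lysosomal genes up. The cause was not tested. Among all genes, 4254 to 5849 were called. With 3 arrays a group, the number of arrays limits what can be called among small differences.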
